A study of Caenorhabditis elegans with 21 samples.

Results

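The genes described here are 35 C. elegans genes that carry a sequence name only, such as T05A8.2, and that had more RNA in each of 3 groups of worms with an impaired proteasome than in any of 4 other groups. A gene entered if its mean FPKM (fragments per kilobase of transcript, scaled to the mapped fragments of the library) was at least 2 in each of rpn-6 RNAi, 10 µM bortezomib and 25 µM bortezomib, and at least 2 times its highest mean in control, starvation, fluphenazine and cantharidin. F44E5.4 and F44E5.5 also met this rule and were left out by name. The 35 genes came from 16395 gene IDs with a sequence name only, in a table of 46254 gene IDs, and all 35 passed the filter on low values used for the tests (at least 1 FPKM in at least 3 libraries), as the rule makes certain. The genes were thus chosen by their measured group means, and the differences between the 3 impaired groups and the other 4 are given as descriptions, with no test.

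RNA was measured in whole wild-type N2 worms on day 1 of adulthood, kept at 20 °C, in 21 libraries, 3 per group. The worms were kept on E. coli OP50 except where the plates of a treatment, given below, replaced it. The drug groups spent the time from the L4 larval stage to the next day on 200 µM fluphenazine, 200 µM cantharidin, 10 µM bortezomib or 25 µM bortezomib. The RNAi group was on rpn-6 RNAi plates from the L3 stage, the starved group was on plates without food for its last 15 h, and the controls were untreated. The labels name neither a vehicle control nor an empty-vector RNAi control, and no measure of proteasome activity, so "impaired" refers to the treatment given, and a treatment cannot be told apart from its solvent or from the RNAi bacteria. They do not say whether libraries came from separate cultures, so p-values measure the spread between these libraries, which may be technical.

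The proteasome is the barrel-shaped protease complex that degrades ubiquitin-tagged proteins. Bortezomib blocks its active sites, and rpn-6.1 encodes a scaffold subunit of the lid of its regulatory cap, the subunit named by the rpn-6 RNAi label. Worms and other animals answer a loss of proteasome activity with higher expression of proteasome genes and of chaperones, and worms also switch on pals genes, a family known from the transcriptional response to intracellular pathogens. The 35 genes have no gene name in the annotation used here, so no function is given for any of them.

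The rpn-6.1 level was 168, 168 and 130.2 FPKM in the 3 control libraries and 115, 122 and 127 FPKM under rpn-6 RNAi. The RNAi libraries all lay below the controls, but the difference of -0.35 ± 0.14 (log2 difference ± SE) did not pass the test (adjusted p = 0.0553, limma). The difference from control was of like size in the groups without RNAi and passed there: -0.38 in starvation, -0.36 in fluphenazine and -0.36 in cantharidin (adjusted p = 0.0255, 0.0397 and 0.0457, limma). Set against control, these values therefore do not show a knockdown specific to the RNAi group. Under bortezomib the rpn-6.1 level was higher than in control, at 210.1 to 221 FPKM. It was also higher there than in rpn-6 RNAi, by 0.84 at 10 µM and 0.83 at 25 µM (adjusted p = 0.000167 and 0.000552, limma). Whether the RNAi lowered rpn-6.1 within an impaired proteasome was not tested. Total FPKM per library ran from 938941 to 1036350, and the depth relative to control 4, estimated from steps of whole fragments, from 0.953 to 1.53. Control 7, starvation 3 and fluphenazine 4 stood apart in that each correlated least with its own group (mean r 0.938, 0.843 and 0.891 over all tested genes). Each correlated more with its closest library of another group (0.951, 0.892 and 0.942), but that sets a highest value against a mean. The other libraries of starvation and fluphenazine met that second condition too. All 27 markers of intestine, muscle, neurons, hypodermis, germline, sperm, oocytes and yolk were in the table, and 26 of them were above 0 in every library. In whole-worm RNA, fewer cells of a type and less RNA per cell cannot be told apart.

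Most of the 35 genes were at low levels in untreated worms and at much higher levels when the proteasome was impaired. Their median level was 0.405 FPKM in control, 0.883 in starvation, 0.991 in fluphenazine and 1.05 in cantharidin, against 6.59 in 10 µM bortezomib, 39.9 in 25 µM bortezomib and 56.2 in rpn-6 RNAi. In control, 24 of the 35 had a mean under 1 FPKM, 16 were listed at 0 in at least 1 library and 5 in all 3 libraries. In rpn-6 RNAi, 12 had a mean over 100 FPKM, compared with 8 at 25 µM and 1 at 10 µM bortezomib. For 32 of the 35, all 9 libraries with an impaired proteasome lay above all 12 others, which held for 1.71% of the 17492 tested genes. The exceptions were C54E10.10, F11A5.18 and F17B5.8. Against control, 34 of the 35 had an adjusted p under 0.05 and a higher level in each impaired group, as had 27.9% of all tested genes in rpn-6 RNAi, 9.61% at 10 µM and 42.3% at 25 µM bortezomib. The rule chose the genes on these differences, so nothing is read from either count.

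**Figure D1:**
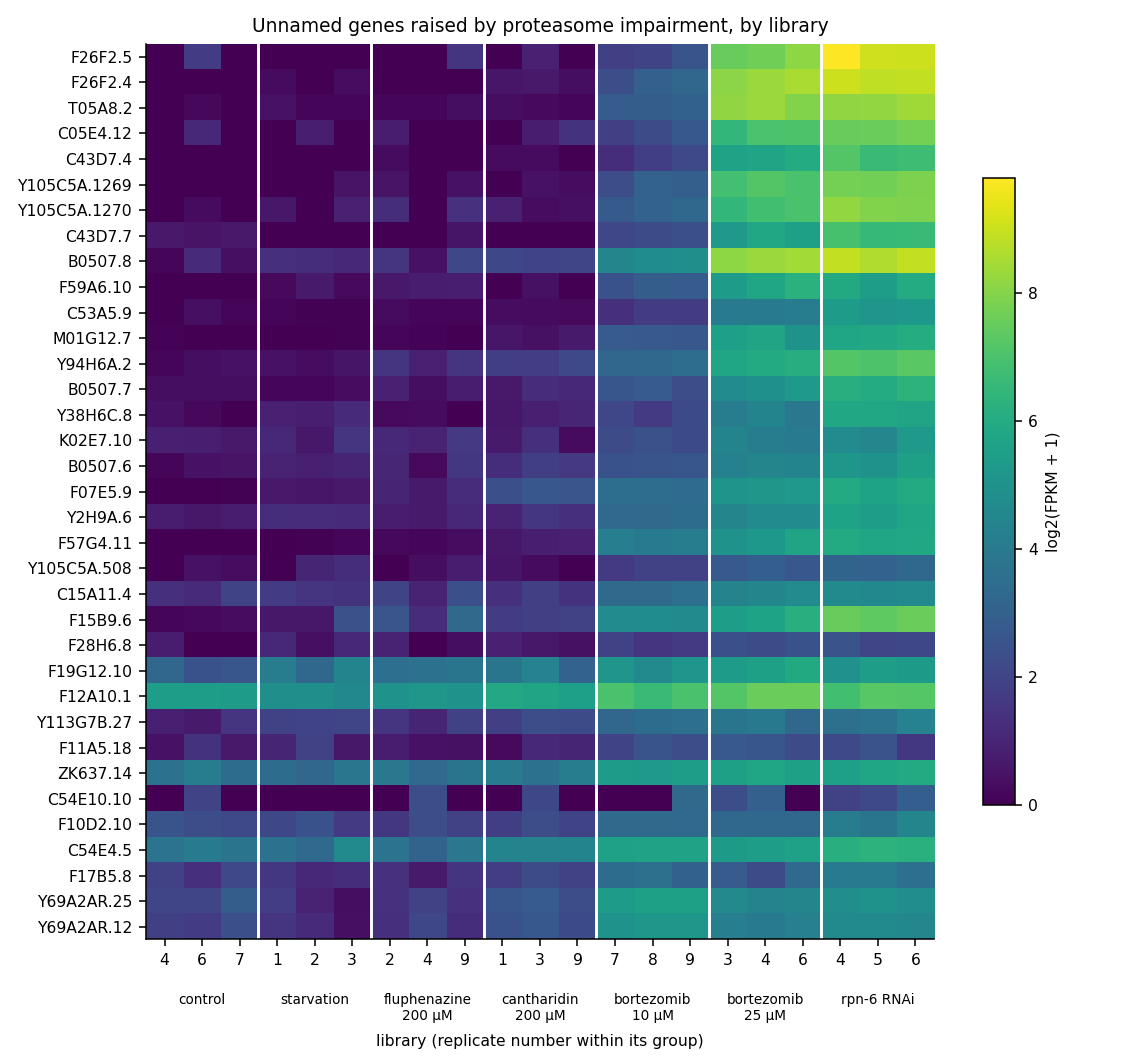
Level of the 35 genes (rows, ordered by the ratio of 25 µM to 10 µM bortezomib) in the 21 libraries (columns, by group), as log2(FPKM + 1) in colour. The 9 libraries on the right, with an impaired proteasome, are brighter than the 12 others in nearly every row, and the 10 µM columns are darker than the 25 µM and rpn-6 RNAi columns in the upper rows.

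The gene with the largest ratio between its lowest impaired group and its highest other group was T05A8.2, at 33.8. T05A8.2 was at 0, 0.158 and 0 FPKM in control, 6.14, 6.44 and 7.18 at 10 µM bortezomib, 285, 323 and 243 at 25 µM and 289.9, 292 and 339.6 in rpn-6 RNAi. The 10 µM libraries were far above every library without impairment, of which the highest held 0.375 FPKM, and far below those of 25 µM and of rpn-6 RNAi, which overlapped. F57G4.11, with a ratio of 21.9, was listed at 0 in all 3 controls and reached 17.3, 14.9 and 16.5 FPKM at 10 µM, 31.9, 36.2 and 51.6 at 25 µM and 62.1, 53.4 and 56.8 in rpn-6 RNAi. The levels of the 3 groups increased in that order with no overlap. F26F2.4, also at 0 in the 3 controls, reached 4.11, 6.94 and 8.46 FPKM at 10 µM, 275, 322 and 377 at 25 µM and 533, 467 and 469.6 in rpn-6 RNAi. Among the 35 genes, only its neighbour F26F2.5 had a higher mean in rpn-6 RNAi, with 888, 549 and 530.5 FPKM, after 2.58, 3.02 and 4.77 at 10 µM and 182, 205 and 279 at 25 µM. M01G12.7, with a ratio of 11.5, had means of 5.68 ± 0.38 FPKM at 10 µM, 42.5 ± 11.1 at 25 µM and 59.8 ± 6.30 in rpn-6 RNAi (SD, n = 3 each).

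At the other end were genes that healthy worms already expressed. F12A10.1 was at 42.5, 44.3 and 40.3 FPKM in control and at 126, 99.8 and 124 at 10 µM, 144, 189 and 192 at 25 µM and 112, 150.4 and 147 in rpn-6 RNAi. Its impaired libraries lay above the others, but it was the only one of the 35 with a control mean above 20 FPKM. C54E4.5 went from 12.3, 16.1 and 12.8 FPKM in control to 47.3, 48.7 and 49.0 at 10 µM, 39.6, 42.7 and 48.2 at 25 µM and 70.5, 79.6 and 74.4 in rpn-6 RNAi. F19G12.10, the only non-coding gene of the set (a lincRNA, a long intergenic RNA), went from 8.37, 4.57 and 5.13 FPKM to 33.95, 24.2 and 34.4 at 10 µM, 41.9, 45.8 and 60.4 at 25 µM and 29.6, 43.1 and 39.0 in rpn-6 RNAi. Its ratio of 2.05 was the smallest of the set. C54E10.10 was listed at 0 in 12 of 21 libraries, 3 of them among the 9 with an impaired proteasome, and at 0, 0 and 9.44 FPKM at 10 µM, 4.08, 7.04 and 0 at 25 µM and 2.76, 3.49 and 6.61 in rpn-6 RNAi. Its groups overlapped, and it was the only one of the 35 not called against control in the impaired groups.

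**Figure D2:**
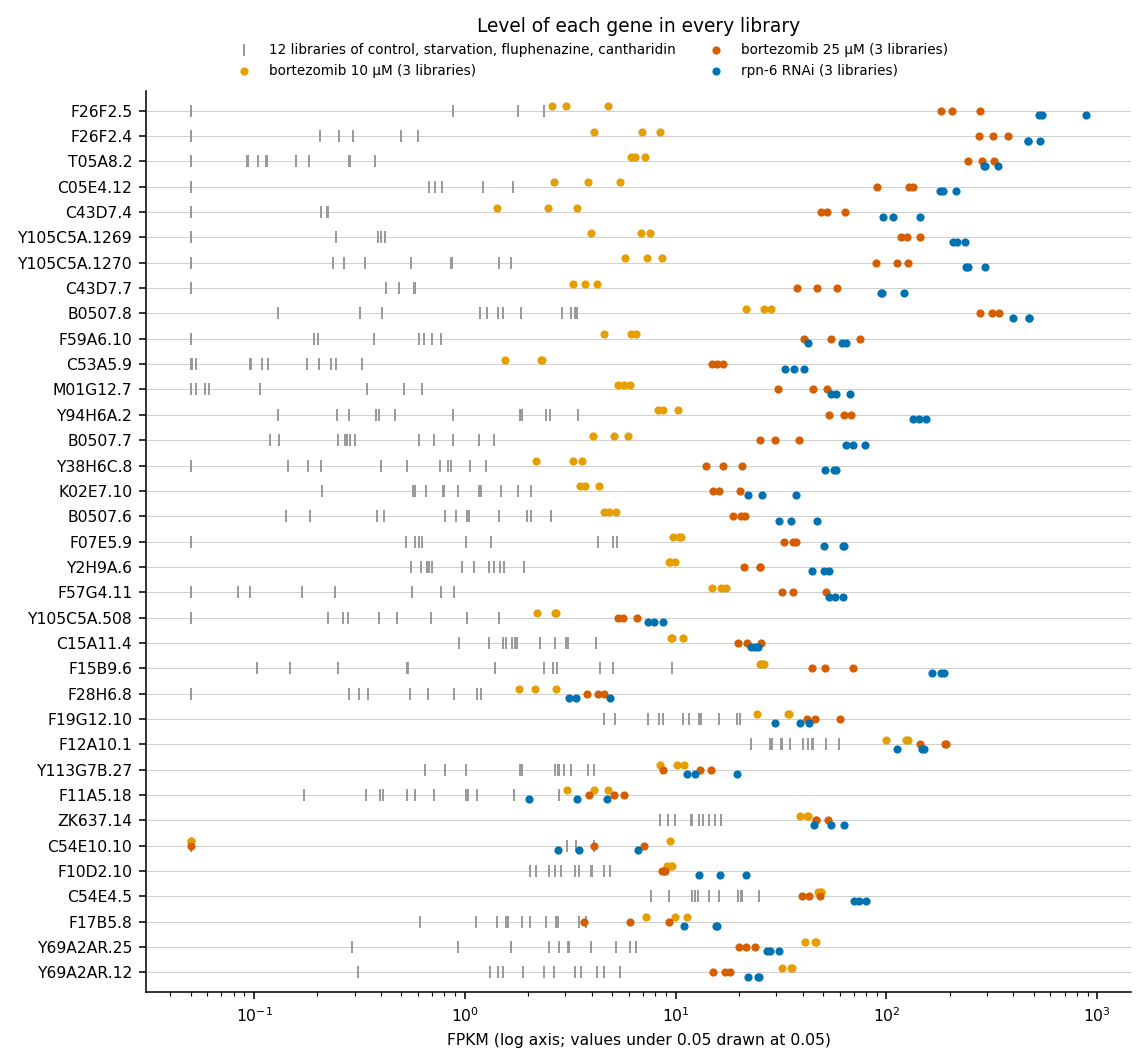
FPKM of each of the 35 genes (log axis) in every library, with grey ticks for the 12 libraries without proteasome impairment and orange, red and blue points for the 3 libraries each of 10 µM bortezomib, 25 µM bortezomib and rpn-6 RNAi. In the upper rows the orange points lie far left of the red and blue ones (T05A8.2 at 6.14 to 7.18 FPKM against 243 to 339.6), and in the lowest 2 rows they lie to the right.

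The rule did not set the 2 bortezomib doses against each other, but it held both to the same floor. A gene near that floor at 10 µM had little room to be lower at 25 µM. At 10 µM, 25 of the 35 genes had a mean under 10 FPKM. The counts of higher and lower genes are therefore partly set by the choice of genes. Of the 35 genes, 24 were higher at 25 µM than at 10 µM, 2 were lower and 9 were not called (limma on log2(FPKM + 1), called at an adjusted p under 0.05 over 17492 genes). Of all tested genes, 27.2% were higher and 12.4% were lower. The median difference was 1.69 on the log2 scale over the 35 genes and 0.27 over all tested genes. Under median-of-ratios scaling 23 of the genes were higher and the 2 medians were 1.55 and 0.16; quantile normalization left 22 genes higher, with medians of 1.27 and -0.04. Over the 35 genes the mean FPKM at 25 µM ranged from 0.490 to 64.3 times that at 10 µM, with 9 genes over 10 times and 9 under 1.5 times.

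The 5 largest rises from 10 to 25 µM were in F26F2.5 (5.65 ± 0.46, adjusted p = 1.17e-07), F26F2.4 (5.47 ± 0.19, adjusted p = 4.30e-12), T05A8.2 (5.22 ± 0.14, adjusted p = 5.74e-13), C05E4.12 (4.58 ± 0.38, adjusted p = 1.66e-07) and Y105C5A.1269 (4.22 ± 0.21, adjusted p = 5.05e-10), all as log2 differences with their SE. C05E4.12 was at 2.65, 3.84 and 5.47 FPKM at 10 µM and 89.8, 128 and 133 at 25 µM. Y105C5A.1269 was at 3.98, 7.55 and 6.84 FPKM at 10 µM and 117, 144 and 125 at 25 µM. In these 5 genes no library of one dose overlapped the other dose, and the calls held in every alternative run, including each library left out in turn. Smaller rises that passed were those of Y2H9A.6 (1.23 ± 0.15), F57G4.11 (1.22 ± 0.15), C15A11.4 (1.08 ± 0.29) and F12A10.1 (0.58 ± 0.15), with adjusted p from 1.06e-05 to 0.00744.

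Y69A2AR.12 and Y69A2AR.25, which lie next to each other, went the other way. Y69A2AR.25 was at 41.1, 45.8 and 46.3 FPKM at 10 µM, 23.7, 20.0 and 21.6 at 25 µM and 28.0, 30.8 and 27.3 in rpn-6 RNAi, after 3.12, 3.08 and 6.48 in control. Y69A2AR.12 was at 32.0, 35.5 and 35.2 FPKM at 10 µM, 17.1, 15.1 and 18.1 at 25 µM and 24.9, 24.6 and 22.0 in rpn-6 RNAi, after 2.65, 2.38 and 4.23 in control. For both genes all 10 µM libraries were above all 25 µM libraries. The fall from 10 to 25 µM was -0.99 ± 0.30 for Y69A2AR.25 (adjusted p = 0.0149, limma) and -0.99 ± 0.27 for Y69A2AR.12 (adjusted p = 0.00873). With a pseudocount of 0.1 neither passed, and without 25 µM replicate 4 the call of Y69A2AR.25 was lost. They were the only genes of the 35 with their highest mean at 10 µM.

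The 9 genes not called between the doses were F15B9.6, F19G12.10, C54E10.10, Y113G7B.27, F11A5.18, ZK637.14, F10D2.10, C54E4.5 and F17B5.8. The 95% interval of the difference was -0.58 to 0.40 for F10D2.10, -0.19 to 0.65 for ZK637.14 and -0.69 to 0.39 for C54E4.5, so for these genes a difference of more than 1 log2 unit lay outside it. For C54E10.10 the interval was -1.41 to 2.72, and that gene's data bound the difference only loosely. F15B9.6 was at 25.3, 26.2 and 25.1 FPKM at 10 µM and 44.3, 51.0 and 69.8 at 25 µM; the groups did not overlap, and its difference of 1.05 ± 0.45 had an adjusted p of 0.0756.

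Marker genes of several tissues also had different levels at the 2 doses. The summed level of 4 intestine markers (ges-1, elt-2, mtl-2 and spl-1) was 138 to 149 FPKM at 10 µM and 78.3 to 87.3 at 25 µM, after 238 to 311 in control and 97.8 to 106 in rpn-6 RNAi. That of 3 yolk protein genes (vit-2, vit-5 and vit-6) was 2572 to 2996 FPKM at 10 µM and 366 to 813 at 25 µM, after 4628 to 5346 in control and 483 to 1018 in rpn-6 RNAi. That of 3 oocyte markers was 856 to 914 FPKM at 10 µM and 226 to 412 at 25 µM, after 521 to 938 in control and 606 to 753 in rpn-6 RNAi. The sum of 3 germline markers was also lower at 25 µM (596 to 639 FPKM) than at 10 µM (769 to 786). Only 2 of these 3 germline markers were above 0 in every library. Other sums were higher at 25 than at 10 µM without overlap, as most of the 35 genes were: 4 sperm markers went from 408 to 456 FPKM to 710.0 to 791, 4 neuronal markers from 271 to 283 to 319 to 336, and 3 body wall muscle markers from 778 to 789.6 to 907 to 1113. The 3 hypodermis markers overlapped between the doses. Their part in the dose difference of the 35 genes was not tested.

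**Figure D3:**
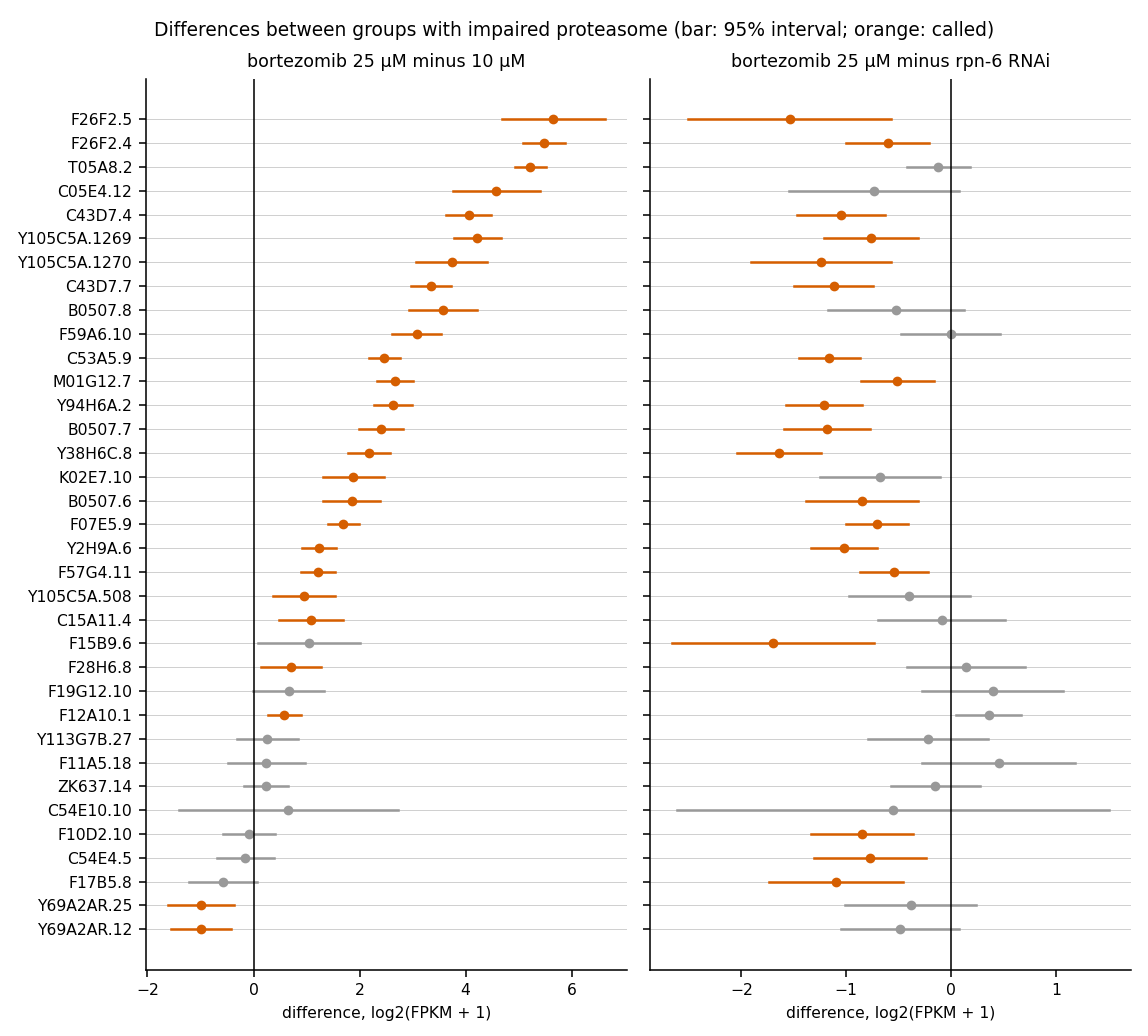
Differences in log2(FPKM + 1) for the 35 genes, 25 µM minus 10 µM bortezomib (left) and 25 µM bortezomib minus rpn-6 RNAi (right), with points for the estimate, bars for the 95% interval and orange for called genes. On the left 24 called genes lie right of 0 and the 2 Y69A2AR genes left of it, and on the right all 19 called genes lie left of 0.

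Compared with rpn-6 RNAi, both bortezomib doses gave lower levels in many of the 35 genes. At 25 µM 19 were lower, 0 were higher and 16 were not called (limma). Of all tested genes 8.01% were lower and 14.1% higher, and the median difference was -0.67 over the 35 genes and 0.03 over all tested genes. At an unadjusted p under 0.05, 20 of the 35 were lower and 1, F12A10.1, was higher. The number that were lower was less stable than the dose result: it was 10 without 25 µM replicate 3, 11 without 25 µM replicate 4, 10 without rpn-6 RNAi replicate 4, 12 without rpn-6 RNAi replicate 6 and 7 with a pseudocount of 0.1. Marker sums lay apart between these groups too: at 25 µM the intestine (78.3 to 87.3 FPKM against 97.8 to 106) and oocyte sums (226 to 412 against 606 to 753) were below those of rpn-6 RNAi, and the sperm sum (710.0 to 791 against 376 to 550.04) was above. Their part in the result was not tested.

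The largest falls at 25 µM against rpn-6 RNAi were in F15B9.6 (-1.70 ± 0.45, adjusted p = 0.0163), Y38H6C.8 (-1.65 ± 0.19, adjusted p = 2.43e-05), F26F2.5 (-1.54 ± 0.46, adjusted p = 0.0266), Y105C5A.1270 (-1.24 ± 0.32, adjusted p = 0.0128) and Y94H6A.2 (-1.21 ± 0.17, adjusted p = 0.000163). Y38H6C.8 was at 16.8, 20.6 and 14.0 FPKM at 25 µM and 56.6, 57.4 and 51.1 in rpn-6 RNAi. Y94H6A.2 was at 53.6, 62.8 and 67.8 FPKM at 25 µM and 143, 133 and 154 in rpn-6 RNAi. Neither gene's groups overlapped, and both calls held when each library was left out, whereas those of F15B9.6, F26F2.5 and Y105C5A.1270 were lost without 25 µM replicate 3. For T05A8.2 the difference between 25 µM and rpn-6 RNAi was -0.12, with a 95% interval of -0.42 to 0.18. For F59A6.10 it was 0.00, with an interval of -0.47 to 0.47, and for C15A11.4 -0.09, with an interval of -0.69 to 0.52.

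At 10 µM, 24 of the 35 genes were lower than in rpn-6 RNAi, 0 were higher and 11 were not called (limma), where 17.4% of all tested genes were lower and 6.66% higher. At an unadjusted p under 0.05, 25 were lower and 0 were higher. Genes near the floor of the rule at 10 µM had little room to be lower in rpn-6 RNAi. These counts are therefore also partly set by the choice of genes. The median difference was -2.56 over the 35 genes and -0.08 over all tested genes. The largest falls were in F26F2.5 (-7.19 ± 0.46), F26F2.4 (-6.08 ± 0.19), T05A8.2 (-5.34 ± 0.14), C05E4.12 (-5.32 ± 0.38) and C43D7.4 (-5.11 ± 0.20), with adjusted p from 1.45e-13 to 2.12e-08. As a percentage of the rpn-6 RNAi mean, the 10 µM mean ran from 0.527% in F26F2.5 to 154.7% in Y69A2AR.25, with a median of 14.3%. The 3 comparisons among the impaired groups share libraries, so their calls are set side by side: 15 genes were higher at 25 than at 10 µM and lower in both bortezomib groups than in rpn-6 RNAi, 7 were higher at 25 µM and lower than rpn-6 RNAi only at 10 µM, and 5 were called in none.

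The order of the 35 genes by level was alike in rpn-6 RNAi and at 25 µM bortezomib and different at 10 µM. Over the 35 group means on the log2 scale, Pearson's r was 0.955 (Spearman's rho 0.940) between rpn-6 RNAi and 25 µM, 0.275 (0.272) between the doses and 0.167 (0.128) between rpn-6 RNAi and 10 µM. These values describe genes chosen together and measured in the same libraries. The floor of the rule cut the range mainly at 10 µM, where 25 of the 35 means were under 10 FPKM. At 25 µM 6 were, and in rpn-6 RNAi 4. It left out 113 gene IDs that met the rule in the other 2 impaired groups and had a mean under 2 FPKM at 10 µM. The correlations with 10 µM are therefore not like measures to the one between rpn-6 RNAi and 25 µM. The coefficient of variation between replicates had a median over the 35 genes of 12.8% at 10 µM, 15.2% at 25 µM and 10.9% in rpn-6 RNAi, and C54E10.10 reached 173% at 10 µM. Over the genes with a mean of at least 5 FPKM in the group, the medians were 8.18% (23 genes), 14.7% (32 genes) and 10.4% (32 genes).

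Starvation, fluphenazine and cantharidin were compared with control next. The rule capped these 3 groups, since the lowest impaired mean had to be at least 2 times theirs, but did not set them against control. In cantharidin, a toxin that inhibits protein phosphatases, 13 of the 35 genes were higher than in control, 1 was lower and 21 were not called (limma), where 31.9% of all tested genes were higher and 5.96% lower. The median difference was 0.34 both over the 35 genes and over all tested genes. F07E5.9 had the largest rise, from 0, 0 and 0.0486 FPKM in control to 4.27, 5.28 and 5.06 (2.53 ± 0.14, adjusted p = 5.47e-09). Its cantharidin libraries lay above those of starvation and fluphenazine too, and its call held in every alternative run. Y94H6A.2 went from 0.13, 0.282 and 0.379 FPKM to 2.55, 2.43 and 3.44 (1.59 ± 0.17, adjusted p = 2.91e-06), without overlap. F15B9.6 (1.62 ± 0.45), B0507.8 (1.47 ± 0.31) and B0507.6 (1.19 ± 0.25) were also called, with adjusted p from 0.00146 to 0.0113, but not after quantile normalization. The other 8 called rises ran from 0.55 in F26F2.4 to 1.14 in Y113G7B.27. Some of these genes stayed at very low levels. The cantharidin means of F26F2.4, M01G12.7, F57G4.11 and Y38H6C.8 were 0.465, 0.493, 0.740 and 0.806 FPKM, while that of F19G12.10 was 13.4. C43D7.7 fell from 0.583, 0.424 and 0.572 FPKM to 0 in all 3 cantharidin libraries (-0.61 ± 0.18, adjusted p = 0.0139).

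In fluphenazine, an antipsychotic drug, 6 of the 35 genes were higher than in control, 0 were lower and 29 were not called (limma), where 34.4% of all tested genes were higher and 9.39% lower. At an unadjusted p under 0.05, 8 were higher and 3 lower. F15B9.6 rose most, from 0.103, 0.149 and 0.251 FPKM to 5.03, 1.39 and 9.58 (2.20 ± 0.45, adjusted p = 0.00128). Its 3 fluphenazine libraries spread widely but all lay above the controls. Y94H6A.2 (0.98 ± 0.17, adjusted p = 0.000324) and F07E5.9 (0.95 ± 0.14, adjusted p = 5.73e-05) rose as well. F19G12.10 (0.90 ± 0.32), B0507.8 (0.79 ± 0.31) and F59A6.10 (0.76 ± 0.22) also passed, with adjusted p from 0.0132 to 0.0475; the calls of F19G12.10 and B0507.8 were lost with median-of-ratios scaling. Without fluphenazine replicate 4, 1 of the libraries that stand apart, 11 genes were higher and 4 lower.

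In starvation, 5 of the 35 genes were higher than in control, 4 were lower and 26 were not called (limma), where 39.1% of all tested genes were higher and 18.4% lower. F19G12.10 (1.16 ± 0.32), Y113G7B.27 (0.96 ± 0.27), Y38H6C.8 (0.74 ± 0.19), F07E5.9 (0.63 ± 0.14) and Y2H9A.6 (0.54 ± 0.15) were higher, with adjusted p from 0.00153 to 0.00735. After quantile normalization Y2H9A.6 had a difference of -0.08. The Y69A2AR pair was lower: Y69A2AR.25 went from 3.12, 3.08 and 6.48 FPKM in control to 2.51, 0.928 and 0.293 (-1.28 ± 0.30, adjusted p = 0.00201), and Y69A2AR.12 from 2.65, 2.38 and 4.23 to 1.89, 1.32 and 0.311 (-0.96 ± 0.27, adjusted p = 0.00696). All their starvation libraries were below the controls. F12A10.1 (-0.66 ± 0.15, adjusted p = 0.00145) and C43D7.7 (-0.61 ± 0.18, adjusted p = 0.00918) were lower as well.

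These 3 comparisons share the controls, and their counts depend on the scaling. The median over all tested genes was 0.38 in starvation, 0.34 in fluphenazine and 0.34 in cantharidin as deposited, 0.13, 0.06 and 0.06 under median-of-ratios scaling, and -0.01, -0.10 and -0.12 after quantile normalization. After quantile normalization 1 of the 35 genes was higher and 9 were lower in starvation, 2 and 11 in fluphenazine, and 3 and 5 in cantharidin. With median-of-ratios scaling the counts were 5 and 6, 4 and 7, and 12 and 2. The intestine marker sum was 113 to 129 FPKM in cantharidin, 191 to 318 in starvation and 274 to 383 in fluphenazine, against 238 to 311 in control. The yolk sum was 11.1 to 2480.03 FPKM in starvation, 663 to 4219.9 in fluphenazine and 634 to 1262 in cantharidin, against 4628 to 5346 in control. The oocyte sum was 42.5 to 236 FPKM in starvation, 149 to 774 in fluphenazine and 344 to 677 in cantharidin, against 521 to 938 in control. The part of these markers in the results was not tested.

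**Figure D4:**
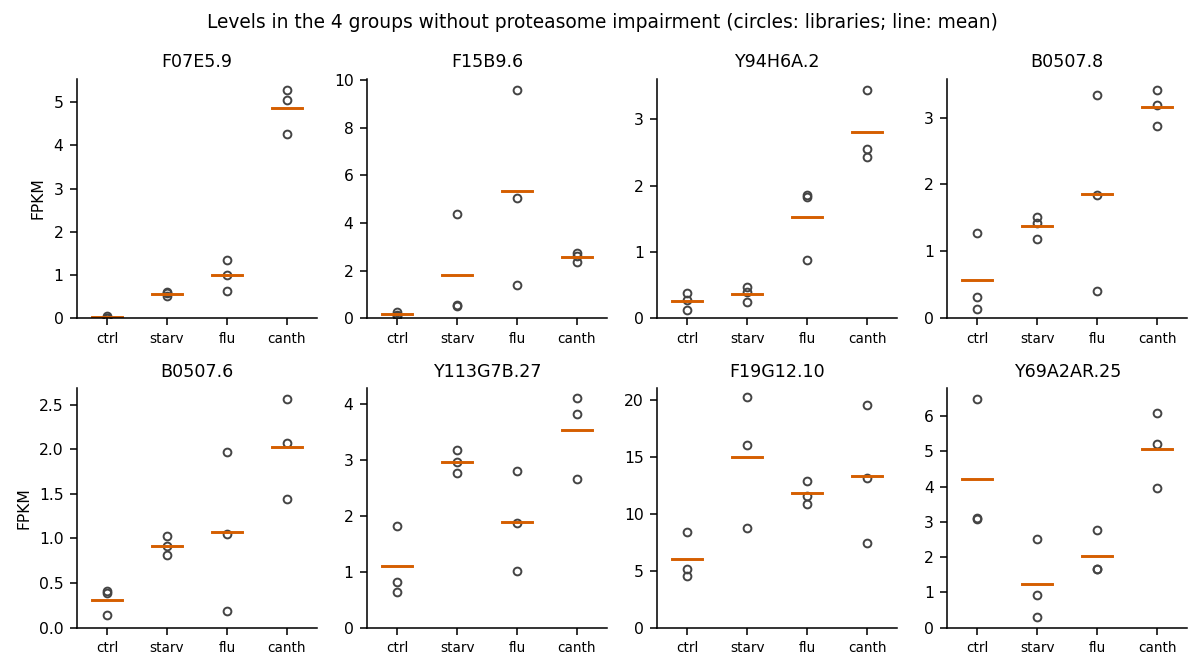
FPKM of 8 of the 35 genes (the 7 with the largest difference between cantharidin and control, and the 1 that was lowest in starvation relative to control) in the 3 libraries (circles) and their mean (line) of control, starvation (starv), fluphenazine (flu) and cantharidin (canth). F07E5.9 and Y94H6A.2 are highest in cantharidin, F15B9.6 spreads most in fluphenazine, and Y69A2AR.25 is lower in starvation than in control.

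The rule did not use the position of the genes. In the gene order of the annotation, 6 of the 35 lay next to another of them, as 3 pairs: F26F2.4 with F26F2.5 on the same strand, and Y69A2AR.12 with Y69A2AR.25 and Y105C5A.1269 with Y105C5A.1270 on opposite strands. Another 4 were separated by 1 gene, C43D7.4 and C43D7.7 by sdz-6 and B0507.7 and B0507.8 by ddn-1, and both of these named genes met the same rule. ddn-1 had means of 1.67 FPKM in control, 30.4 at 10 µM, 332 at 25 µM and 501 in rpn-6 RNAi, and sdz-6 of 1.42, 22.2, 76.7 and 131. Y113G7B.27 lay within 2 genes of fbxa-115, a named F-box A family gene that met the rule too. Levels within a pair were close in some and apart in others. Y105C5A.1269 had means of 6.12, 129 and 219 FPKM at 10 µM, 25 µM and in rpn-6 RNAi, and Y105C5A.1270 of 7.25, 109 and 258. F26F2.4 had means of 6.50, 325 and 490.1 FPKM and F26F2.5 of 3.46, 222 and 656. B0507.7 had means of 5.02, 31.1 and 71.0 FPKM, well below those of B0507.8 at 25.4, 312 and 449.

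Some other neighbours met the rule in rpn-6 RNAi and at 25 µM but not at 10 µM. Of 122 other genes within 2 positions of one of the 35, 17 (13.9%) did so, against 317 of 21896 genes in the order (1.45%), and 36 had a mean under 1 FPKM in every group. The 17 are not separate neighbourhoods, as several lie around B0507. They include C05E4.15 and srh-217, which overlap C05E4.12 and Y113G7B.27 and may share fragments with them. Beside F26F2.4, F26F2.2 had means of 0.881 FPKM at 10 µM, 85.2 at 25 µM and 184 in rpn-6 RNAi, and F26F2.3 of 0.903, 160.5 and 337. On the far side of these, F26F2.13 had means of 2.28, 175 and 383 FPKM. The next gene on the other side, clec-263, stayed at or below 1.96 FPKM in every group. Neighbouring genes that resemble each other in sequence could share fragments; sequences were not used here, so this was not tested.

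**Figure D5:**
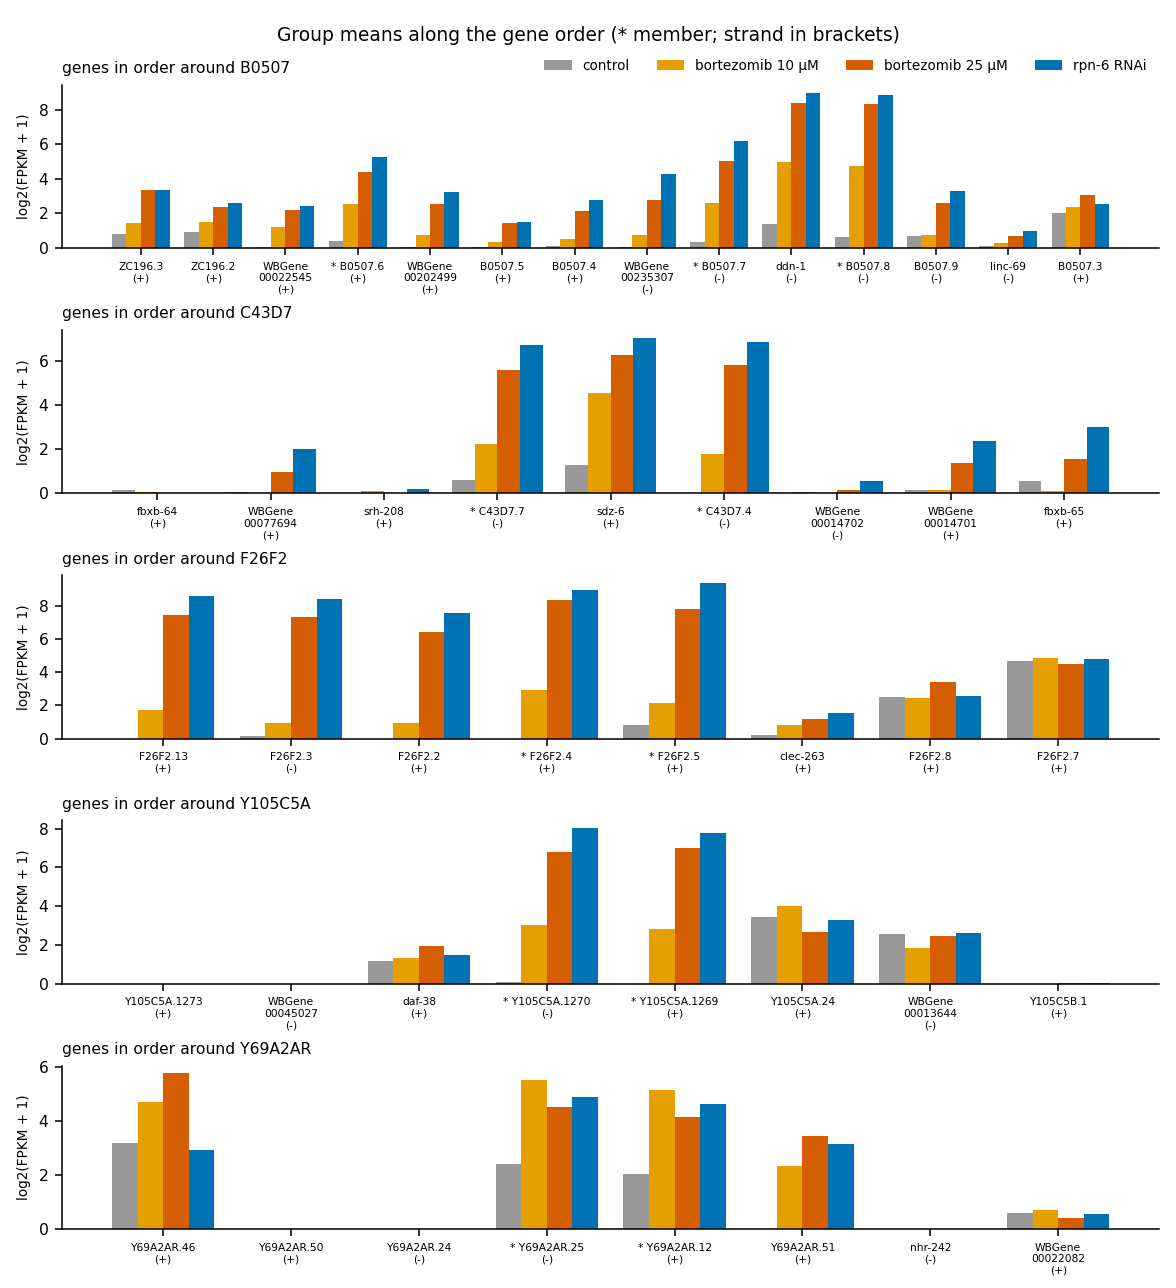
Mean log2-scaled level, log2(FPKM + 1), along the gene order around 5 clusters of the 35 genes (marked *), with bars for control, 10 µM bortezomib, 25 µM bortezomib and rpn-6 RNAi and the strand in brackets. Around F26F2, 5 neighbouring genes have low bars at 10 µM and high bars at 25 µM and in rpn-6 RNAi, around B0507 ddn-1 stands between B0507.7 and B0507.8, and in the Y69A2AR pair the 10 µM bar is the tallest.

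Of the 35 genes, 17 lie on chromosome V (48.6%), 7 on IV, 5 on II, 3 on I, 2 on X and 1 on III, while 22.2% of the 7657 tested genes with a sequence name only lie on V. Several of the 17 are neighbours, around B0507, C43D7 and F26F2, so they are not all separate positions. The named genes that met the same rule had a like share on V, 19 of 41 (46.3%). The 34 protein-coding genes encode proteins of 55 to 705 residues with a median of 194.5, against 262 for the tested protein-coding genes of that kind, and 17 of the 34 are under 200 residues, against 36.9% of those and 9 of the 41 named genes that met the rule. A total of 7 of the 35 overlap another annotated gene. ZK637.14 lies opposite famh-136, which was at 135 to 164 FPKM in every group. C05E4.12 shares its strand with C05E4.15, and Y113G7B.27 lies opposite srh-217 and on the strand of anr-37. F07E5.9 shares its strand with a pseudogene that had means of 0 FPKM in control, 0.257 in cantharidin and 4.19 in rpn-6 RNAi. C43D7.7 lies opposite srh-208, F17B5.8 opposite oac-17, and C54E10.10 shares its strand with sri-10. These overlapping genes, srh-208, oac-17 and sri-10, had means under 1 FPKM in every group. None of the sources used here states whether the counting used the strand, so fragments of such pairs may have been mixed.

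The same rule was met by 41 of the 11187 gene IDs that do have a gene name. They comprised 14 of the 37 pals genes in the table, 7 of 22 hsp genes (heat shock chaperones) and 5 of 44 gst genes (glutathione S-transferases). The rest were 3 of 170 fbxa genes, 2 of 33 sdz genes and 1 gene each of 10 other name groups. The 10 with the largest ratio were hsp-16.41, pals-11, pals-29, pals-10, pals-5, pals-7, fbxb-14, hsp-16.2, pals-9 and sdz-6. pals-10 was listed at 0 in every library without impairment and had means of 2.44 ± 1.24 FPKM at 10 µM, 82.1 ± 14.7 at 25 µM and 177 ± 6.71 in rpn-6 RNAi (SD, n = 3 each). hsp-16.41, a small heat shock protein, had 219 ± 16.1 FPKM at 10 µM, 170.1 ± 20.5 at 25 µM and 474 ± 30.3 in rpn-6 RNAi. The mean at 25 µM was 33.7 times that at 10 µM for pals-10 and 0.776 times for hsp-16.41.

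Across whole families, beside 27.2% of all tested genes higher and 12.4% lower at 25 than at 10 µM (median 0.27), 30 of 36 tested pals genes were higher at 25 than at 10 µM (median 2.15), 68 of 139 fbxa genes were higher and 7 lower (median 0.63), and 2 of 6 hsp-16 genes were lower (median -0.46). Of 4 genes for ubiquitin ligase components, cul-6, skr-3, skr-4 and skr-5, 3 were higher (median 1.35). The hsp-16 genes include near-identical copies whose fragments the counting may have split. None of the 33 proteasome subunit genes met the rule. Against control, 27 were called higher in rpn-6 RNAi (median 0.43), 26 at 10 µM (0.51) and 20 at 25 µM bortezomib (0.33), beside 27.9%, 9.61% and 42.3% of all tested genes, with medians of 0.31, 0.16 and 0.40. The largest were in rpt-6 and rpn-10 in rpn-6 RNAi (0.73 and 0.65), rpt-6 and rpn-8 at 10 µM (0.73 and 0.67), and rpn-6.2 and rpt-6 at 25 µM (0.94 and 0.77). pas-5, which is listed at 0 in some libraries, had the lowest difference in all 3, at -5.76 ± 2.88 in rpn-6 RNAi and -2.79 ± 2.88 at each bortezomib dose, and next lowest were rpn-6.1 in rpn-6 RNAi (-0.35), pbs-1 at 10 µM (0.30) and pas-4 at 25 µM (0.00), none of them called. Of skn-1, ddi-1 and png-1, which regulate proteasome gene expression, 3 were called higher in rpn-6 RNAi and 2 at each bortezomib dose.

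The thresholds set the edge of the group. Just inside the ratio of 2 were F19G12.10 (2.05), F07E5.9 (2.10), F10D2.10 (2.14), F17B5.8 (2.14) and C54E4.5 (2.15), and just outside were C55A6.6 (1.999), F56D5.3 (1.97), Y46E12A.5 (1.88), ZC196.4 (1.88) and C08E8.10 (1.86). By level, C53A5.9 was the lowest inside, at 2.07 FPKM at 10 µM, and F57G4.1 (1.69), C53A5.11 (1.68) and T05A8.1 (1.55) were the nearest outside, each with its lowest impaired mean in FPKM. The 10 µM group was the limiting one: it was the lowest of the 3 impaired groups in 29 of the 35 genes. Held to the rule alone, 436 gene IDs with a sequence name only passed in rpn-6 RNAi, 585 at 25 µM and 86 at 10 µM bortezomib.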

How the data were processed

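The authors deposited FPKM values per gene and library; per the submitters' processing notes CASAVA and Cufflinks were used. None of the sources used here names the aligner, the genome build, the filters, the read totals or the use of strand. Per the labels' protocols, RNA was extracted with Trizol and made into stranded mRNA libraries. Gene IDs were joined to WormBase names of annotation release 115 (43200 of 46254 matched), which also gave chromosome, biotype and gene order; coordinates are not printed because the authors' build is not known.

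The values were analysed as log2(FPKM + 1), which understates changes of low genes, in limma 3.58.1 (R 4.3.3; lmFit and eBayes with trend) with 7 group means, all 21 libraries, the 17492 genes that reached 1 FPKM in 3 or more libraries, 14 residual and 2.01 prior degrees of freedom, and two-sided p-values adjusted by Benjamini-Hochberg over all tested genes. The fit was tested on simulated data, where it recovered most of the larger changes but missed many of the smaller ones. A gene not called may therefore still differ. Genes changed in the simulation had mean levels well above the control levels of most of the 35 genes. Recovery at such low levels was not measured. Deviations of the libraries were shuffled across the groups, so the simulated false calls do not rate any single comparison of the real data. Tables and figures used Python 3.11.15. Of genes with a median over 20 FPKM, 60 have values listed at 0 (154 values), which may be failed estimates; none is among the 35 genes.

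The 35 genes, the gene lists and the tests were chosen with earlier results of these data known. The text names rpn-6.1, the 15 genes with the largest ratio among those with at least 5 FPKM in each impaired group, up to 5 called genes per comparison and direction, genes near the thresholds, neighbouring genes, genes at 0, the 10 named genes with the largest ratio and the extreme proteasome subunits; other genes of the 35 were named after their values were seen. In bortezomib titles the first digit was taken as the replicate and the rest as the dose, which the treatment label also gives. Replicate numbers shared between groups were not taken as pairs. Protein and promoter sequences were not used here. The alternatives were another pseudocount, no filter on low values or a stricter one (5 FPKM), quantile normalization, scaling by the median of ratios, zeros as missing, the 2 compared groups only, a replicate block, each library left out, other ratios or medians in the rule, and, chosen after seeing the data, the 3 libraries that stand apart left out together.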

Additional observations from a re-analysis of the deposited data

How the results depend on the processing

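The number of genes meeting the rule was 56 at a ratio of 1.5 and 22 at a ratio of 3, and 31 to 37 in the runs that left out 1 library each. Between the bortezomib doses the number higher at 25 µM was 23 in each run with a library left out, and the number lower was 1 to 2, and 0 with a pseudocount of 0.1. Against rpn-6 RNAi, the number lower at 25 µM was 10 to 14 with a library left out and 7 with a pseudocount of 0.1, and the number higher was 0 to 1; at 10 µM, 23 to 24 were lower and 0 higher with a library left out, and 2 were higher when the 2 groups were fitted alone. Without control 7, starvation 3 and fluphenazine 4, 1 gene was higher at 25 µM and 2 at 10 µM than in rpn-6 RNAi, and 4 were lower in fluphenazine than in control.

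With a library left out, 5 to 7 genes were higher and 4 lower in starvation than in control, 4 to 11 and 0 to 4 in fluphenazine, and 9 to 12 and 1 in cantharidin. A pseudocount of 0.1 gave 12 higher in starvation and 1 lower in fluphenazine, and a filter at 5 FPKM also gave 1 lower in fluphenazine. Median-of-ratios scaling gave 7 lower in fluphenazine and 2 lower in cantharidin. Quantile normalization gave 1 higher and 9 lower in starvation, 2 and 11 in fluphenazine, and 3 and 5 in cantharidin, and it turned the difference of Y2H9A.6 in starvation to -0.085 (adjusted p = 0.643, limma). Fits of the 2 groups alone gave 2 higher and 1 lower in starvation, 1 higher in fluphenazine, and 7 higher and 0 lower in cantharidin. The cause of these moves was not tested.

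Replicate numbers were not taken to pair the samples: groups share at most 2 numbers, and over the 18 same-numbered pairs of libraries the deviations from the group means correlated at -0.47 to 0.54, over 0.1 in 2 pairs, replicate 4 of control and fluphenazine (0.54) and replicate 9 of fluphenazine and 10 µM bortezomib (0.10). With a replicate block, 20 genes were higher and 0 lower at 25 than at 10 µM, 3 were lower at 25 µM and 21 at 10 µM than in rpn-6 RNAi, and 0 were higher and 0 lower in starvation, 2 and 0 in fluphenazine, and 2 and 0 in cantharidin (limma in each case). The calls of both Y69A2AR genes between the doses, of F15B9.6, F26F2.5 and Y105C5A.1270 at 25 µM against rpn-6 RNAi, and all those in starvation were lost with the block.

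Of 549 recomputed differences of single genes, 486 kept their direction and side of the threshold, 62 lost the call and 1 reversed. Absolute depth is not known, so levels under about 1 FPKM have no counting error given.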

Other observations

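A larger group of 192 gene IDs with a sequence name only met the rule in rpn-6 RNAi and at 25 µM bortezomib but not at 10 µM. Of these IDs, 113 had a mean under 2 FPKM at 10 µM. F26F2.2 is among them under separate IDs. K08D8.11 was listed at 0 in every library of control, starvation, fluphenazine, cantharidin and 10 µM bortezomib and had means of 279 FPKM at 25 µM and 519 in rpn-6 RNAi. F26F2.13 had means of 0 FPKM in control, 2.28 at 10 µM, 175 at 25 µM and 383 in rpn-6 RNAi. Others were already abundant in untreated worms: F37C4.5 had means of 159 FPKM in control, 162 at 10 µM, 468 at 25 µM and 484 in rpn-6 RNAi. These genes were named after their values were seen and are given without a test.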
